A study of Homo sapiens with 3 samples.

Results

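Ribosome biogenesis and nucleolar proteins were followed as a set of 60 genes across 3 deposited lists of A-to-G positions. The genes were chosen by symbol from the functions of their products, with earlier results of these data known. At least 1 position was listed for 35 of the 60 genes, and 25 had none. The 35 were among 4245 genes named in the lists, and their 140 positions among 16820. HyperTRIBE marks the RNA near a protein by joining it to a hyperactive catalytic domain of ADAR, the enzyme that turns adenosine into inosine, which is read as G. Here it was joined to DDX41, a DEAD-box RNA helicase mutated in some myeloid neoplasms and linked to the processing of small nucleolar RNAs. The cells were THP-1, a human monocytic leukemia line, and all were transduced with a pGK-GFP retrovirus packaged in 293T cells, a human kidney line, with RNA taken at day 7. The first library had the vector with no transgene (empty vector), the next the catalytic domain by itself (ADARcd alone), and the last the domain fused to DDX41 (DDX41-ADARcd). Each group was 1 library, so there was no replicate error, and every test compared the reads of libraries and not the conditions. The labels name no deletion and no drug treatment in any group.

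Ribosomes are built in the nucleolus, where RNA polymerase I transcribes the ribosomal RNA precursor. Guide RNAs of the box C/D and box H/ACA classes direct its methylation and pseudouridylation, and large complexes with helicases and GTPases fold, cut and export the future small and large subunits. These genes are highly expressed in growing leukemia cells, and NPM1 is itself often mutated in acute myeloid leukemia.

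Few of the members' sites held more than 1 edited read, and sequences around selected sites are given below. Whether such reads are edits or errors of sequencing or alignment was not tested. Each line gives 10 bases on each side of a site, read 5′ to 3′ along the transcript (GENCODE 29 on GRCh38), with the edited A in capitals. The DDX21 sites are shown because they had the highest levels among the members' sites of ADARcd alone, the first NCL site because it was the single position listed for both transduced libraries against the empty vector, and the others because each had 2 edited reads in DDX41-ADARcd.
DDX21 coding exon (chr10:68956256-68956276, plus strand): ttggaatcagAcaccgcaatg
DDX21 3′ UTR (chr10:68984554-68984574, plus strand): ggttttgcccAaatactgggc
DDX21 3′ UTR (chr10:68984631-68984651, plus strand): aagcagattaAaaggatatgg
NCL coding exon, both transduced libraries (chr2:231458315-231458335, minus strand): atgaattgaaAgaagtgtttg
NCL coding exon (chr2:231458322-231458342, minus strand): actcaggatgAattgaaagaa
NCL coding exon (chr2:231461642-231461662, minus strand): atgaggatgaAgatgaaattg
NPM1 coding exon (chr5:171400861-171400881, plus strand): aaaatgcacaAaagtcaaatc
WDR43 coding exon (chr2:28901997-28902017, plus strand): agaggaaaaaAaggaaatcag
DDX24 coding exon (chr14:94062554-94062574, minus strand): ttgcagtggcAgaagaggaat
DDX54 coding exon (chr12:113161285-113161305, minus strand): cagagcgaagAggtgggaagc
RRP1B coding exon (chr21:43687683-43687703, plus strand): aaagccctgaAggcacgtgtg
SNU13 3′ UTR (chr22:41674324-41674344, minus strand): acccacaaccAtgcccttgag
A base of A stood before the edited A at 6 of the 10 sites with 2 edited reads and a known sequence in the list of DDX41-ADARcd against ADARcd alone, and T at 0. In the list of ADARcd alone it was A at 4 of 7 and T at 0.

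Depth is given per position, as reads covering it. The editing level is the percent of those reads that carry the edited base. Parentheses hold exact Clopper-Pearson 95% intervals, which reflect counting error alone: PCR copies were not marked with molecular identifiers, so reads need not be separate molecules. Over all sites the median depth was 286 reads in ADARcd alone against 27 in the empty vector, 220 in DDX41-ADARcd against 30 in the empty vector, and 30 in DDX41-ADARcd against 45 in ADARcd alone. At the members' sites it was 288 against 20, 240 against 25, and 22.5 against 36. The control library of each position held 0 edited reads, and with a floor of 3 reads that allows a level of 3.03% to 30.0% in the empty vector in the list of ADARcd alone. Of 12 monocytic marker genes, 8 had a listed position (AZU1, CD68, CSF1R, CTSG, FCGR1A, LYN, LYZ and SPI1), against 0 of 3 T cell, 0 of 3 B cell and 0 of 3 erythroid markers.

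At no member site was the level told apart from the control by its reads. The list of ADARcd alone against the empty vector held 32 sites in 6 member genes, among 6413 sites in 1258 genes. That of DDX41-ADARcd against the empty vector held 33 sites in 9, among 3516 in 957. In that of DDX41-ADARcd against ADARcd alone it was 108 sites in 34, among 10407 in 4036. The listed share of the 60 members was thus 10.0%, 15.0% and 56.7%. GNL3 was listed for ADARcd alone and not for DDX41-ADARcd against it. No member site had more than 2 edited reads, while the most at any site of the 3 lists was 816, 19 and 10 in that order. A single edited read made up 78.1% (60 to 90.7) of the members' sites for ADARcd alone, beside 74.8% of all its sites. The share was 87.9% (71.8 to 96.6) beside 81.5% for DDX41-ADARcd against the empty vector, and 87.0% (79.2 to 92.7) beside 83.9% against ADARcd alone. Each of these intervals held the share of the whole list.

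Fisher's exact test with Benjamini-Hochberg adjustment, two-sided and over all sites of a comparison, called 0 of 32 member sites higher in ADARcd alone than in the empty vector, where it called 0.203% of all sites tested. It called 0 of 33 member sites higher in DDX41-ADARcd than in the empty vector, beside 0.0% of all sites. Between DDX41-ADARcd and ADARcd alone it called 0 of 99 member sites higher, beside 0.0% of all sites. It also called 0 lower, beside 0.282% (0.423% at an unadjusted p under 0.05, again with 0 members), but 98 of the 99 entered the list through having 0 edited reads in the control and could not come out lower. The single NCL position listed for both transduced libraries was the only member site that could. Most of all sites tested had the same limit, so 0.282% is not the share among positions able to come out lower. At an unadjusted p under 0.05 the counts of members called higher were also 0, beside 0.546%, 0.0854% and 0.434% of all sites in the same order, and with Bonferroni adjustment they were 0 as well. The smallest p of a member was 0.121, at the DDX24 site shown above, with an adjusted p of 0.56 by Fisher's exact test with Benjamini-Hochberg adjustment. Every listed member position had an edited read in the first library and 0 in the control, so listing had already fixed the direction as higher. The p values and their adjustment thus cover positions selected on the counts tested, and not all positions read. At the members' median depths an unadjusted p under 0.05 needed 52 edited reads of 288 (18.1%) for ADARcd alone and 36 of 240 (15.0%) for DDX41-ADARcd against the empty vector. It needed 3 of 22 (13.6%) for DDX41-ADARcd against ADARcd alone. No member site reached these numbers of edited reads, so smaller differences were not detectable at this depth.

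**Figure D1:**
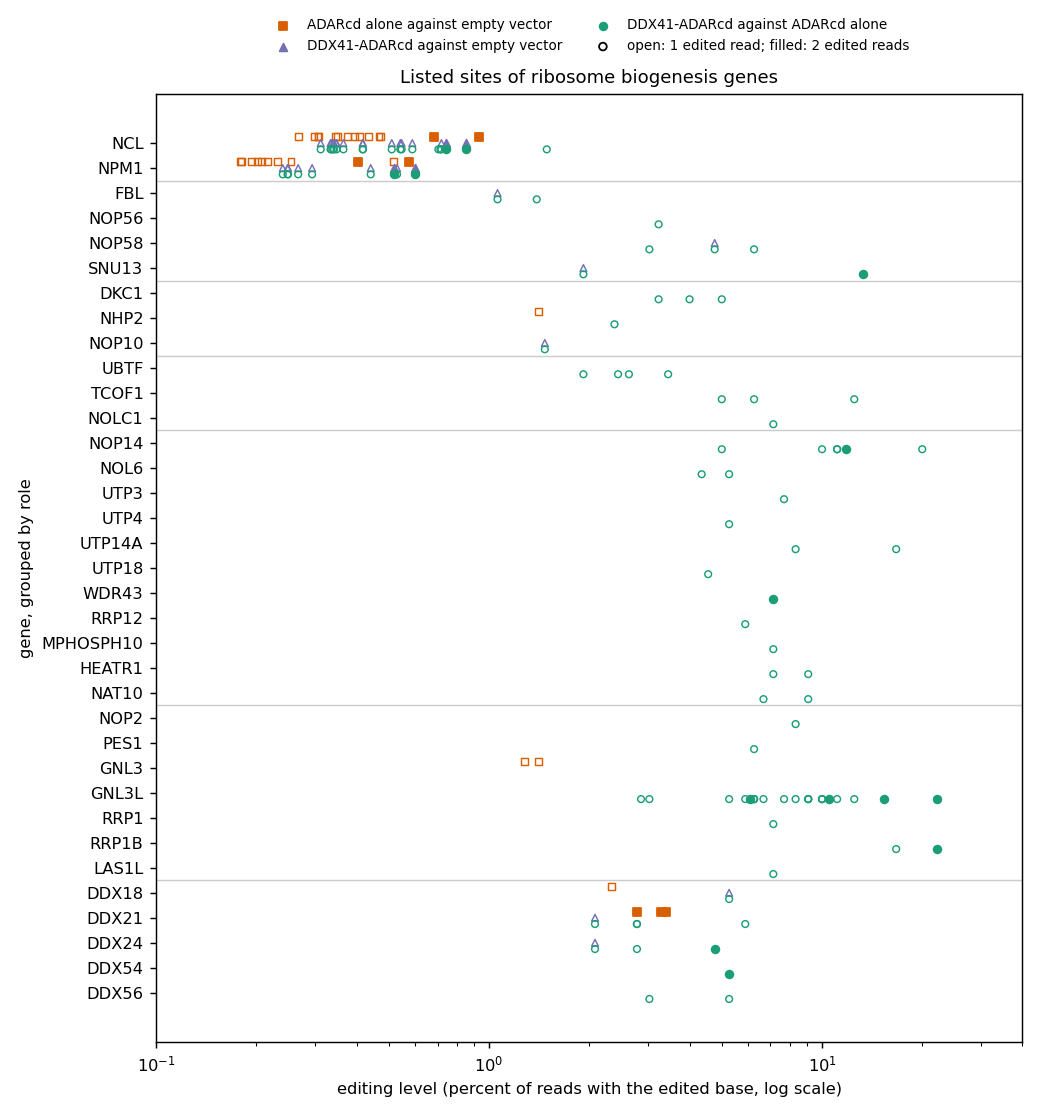
Editing level (percent of reads with the edited base, log scale) at each listed site of the 35 listed members, with genes grouped by role from chaperones at the top to helicases at the bottom. Squares, triangles and circles stand for the 3 lists, and filled symbols for sites with 2 edited reads; NCL and NPM1 lie below 1.5% at every site, while the less deeply read genes lie between 1.06% and 22.2%.

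Since 1 edited read weighs more where fewer reads cover a site, the spread of levels over the members followed how deeply each gene was read. The members' median level was 0.399% for ADARcd alone (0.434% over all sites), 0.51% for DDX41-ADARcd against the empty vector (0.515%), and 5.0% against ADARcd alone (3.7%). Levels of 10% or more were found at 18 of 108 member sites in the last list, or 16.7% (10.2 to 25.1), beside 21.5% of all its sites. Of those 18, 5 were in NOP14 and 8 in GNL3L.

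The nucleolar chaperones NCL and NPM1 carried most of the sites against the empty vector. Nucleolin, the product of NCL, binds the ribosomal RNA precursor, and nucleophosmin, the product of NPM1, is a histone and ribosome chaperone of the nucleolus. The pair accounted for 25 of the 32 member sites of ADARcd alone and 26 of the 33 of DDX41-ADARcd against the empty vector. NPM3, a relative of NPM1, was not listed. NCL had 14 sites in ADARcd alone (0.267% to 0.935%) and 17 in DDX41-ADARcd against the empty vector (0.312% to 0.855%). NPM1 had 11 (0.179% to 0.576%) and 9 (0.24% to 0.599%). The ranges of both libraries overlapped in both genes.

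One position, in exon 8 of NCL (chr2, position 231458325), was listed for both transduced libraries. It was edited in 1 of 288 reads in DDX41-ADARcd (0.347%, 0.00879 to 1.92) and in 1 of 336 in ADARcd alone (0.298%, 0.00753 to 1.65), with 0 of 31 in the empty vector. The difference between the transduced libraries had a p of 1.0 and an adjusted p of 1.0 by Fisher's exact test with Benjamini-Hochberg adjustment. The remaining positions of NCL and NPM1 were listed for one of the transduced libraries only. Of the NCL sites with 2 edited reads in DDX41-ADARcd, one stood at 2 of 234 (0.855%, 0.104 to 3.05), against 0 of 293 in ADARcd alone and 0 of 26 in the empty vector, and the other at 2 of 270 (0.741%), against 0 of 314 and 0 of 27. In NPM1 the sites with 2 edited reads were position 171400871, at 2 of 334 (0.599%) against 0 of 423 and 0 of 73, and position 171400923, at 2 of 387 (0.517%) against 0 of 493 and 0 of 82. Both sites in NCL with 2 edited reads in ADARcd alone stood at 2 of 214 (0.935%) and 2 of 292 (0.685%), and those in NPM1 at 2 of 494 and 2 of 347. Neither gene had a site whose interval lay above the level that its control's depth allows. Against the empty vector the intervals ended below that level. At NPM1 position 171391330 in ADARcd alone, for example, the interval was 0.00453 to 0.993 and the allowed level 3.03%.

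Depth could be followed through all 3 libraries at the 33 member positions listed for DDX41-ADARcd against the empty vector. At the 17 of NCL the median was 23 reads in the empty vector (10 to 39), 323 in ADARcd alone (201 to 361) and 270 in DDX41-ADARcd (139 to 321). At the 9 of NPM1 it was 73 (25 to 94), 493 (313 to 555) and 374 (189 to 417). For both genes the empty vector's reads lay below those of the transduced libraries without overlap, which was also so at the other 7 positions. Over all listed sites the median ratio to the empty vector was 8.77 for ADARcd alone and 5.82 for DDX41-ADARcd. Each member position here had entered its list with an edited read in DDX41-ADARcd. The share of all listed positions without such overlap was not counted. The ratio of ADARcd alone to the empty vector was 13.6 at the NCL positions (9.26 to 23.1) and 6.01 at those of NPM1 (5.3 to 12.5). Library totals are not used here, so these ratios hold library size as well as RNA level, and what part each has was not tested. Among 414 genes with 5 or more sites in the list of ADARcd alone the middle ratio was 8.95 (5th to 95th percentile 5.3 to 17.2), with NCL at 14.5 and NPM1 at 5.91, so the pair lay on opposite sides of the typical gene. Among 220 genes in the list that sets DDX41-ADARcd beside the empty vector the median was 6.13 (3.7 to 12.4), with NCL at 10.4 and NPM1 at 4.72. Both comparisons share the empty-vector library.

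**Figure D2:**
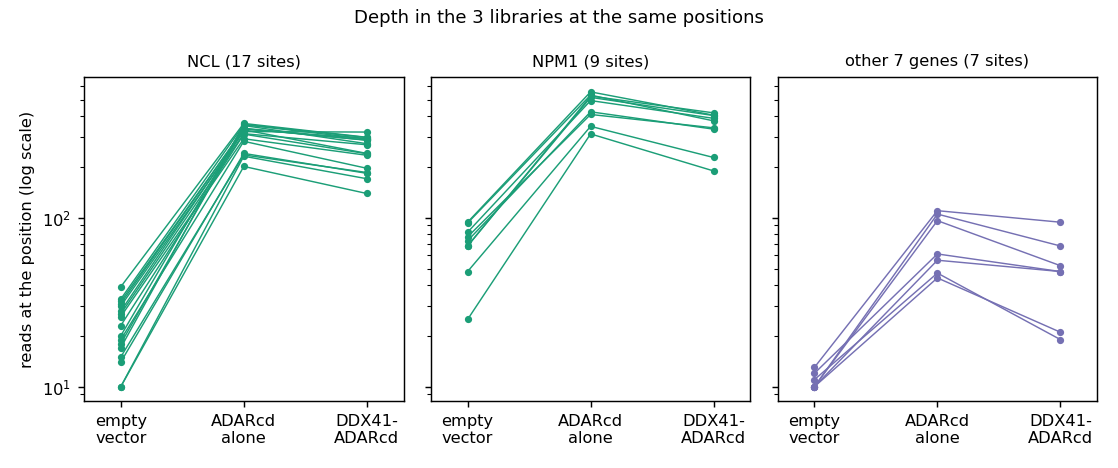
Reads (log scale) at the same positions in the 3 libraries, 1 line per position, for the 17 positions of NCL, the 9 of NPM1 and 7 positions of 7 other members. Every line rises from the empty vector to ADARcd alone and ends lower in DDX41-ADARcd, at 139 to 321 reads for NCL and 189 to 417 for NPM1.

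NCL is also a host of small nucleolar RNAs, which are cut from its introns. Of its sites, 5 of 14 in ADARcd alone lay within 500 bases of an annotated small nucleolar RNA, the nearest 47 bases from SNORD82. In DDX41-ADARcd it was 7 of 17 against the empty vector and 9 of 19 against ADARcd alone, the nearest 77 bases from SNORA75. Over all listed sites the shares within that distance were 5.07%, 5.2% and 1.75% in that order, and over the members' sites 15.6%, 21.2% and 10.2%. Without NCL and NPM1 the members' shares were 0.0% of 7 sites, 0.0% of 7 and 2.5% of 80. NPM1 had no such site. The other members with such a site were DKC1, 108 bases from SNORA56, and NOP56, 203 bases from SNORD56, each with 1 site. NCL also had reads of other bases. Reads with neither the reference nor the edited base made up 39 of 9258 reads (0.421%) at the members' sites in ADARcd alone, beside 0.0984% over all sites, and 35 of the 39 were in NCL. They sat mostly at a pair of neighbouring positions: 24 of 212 reads at position 231460703 and 7 of 214 at position 231460718. At the first of these the empty vector also had another base, in 2 of 18 reads, and at the other in 0 of 19.

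The box C/D proteins, which methylate ribosomal RNA, were each listed, with 8 sites in DDX41-ADARcd against ADARcd alone. Against the empty vector they had 3 sites in DDX41-ADARcd and 0 in ADARcd alone. FBL, the methyltransferase fibrillarin, had 1 edited read of 94 (1.06%) at position 39834738 of chromosome 19, against 0 of 110 in ADARcd alone and 0 of 13 in the empty vector. A further FBL site had 1 of 72 against 0 of 71. NOP58, a core scaffold protein, had 3 sites at 1 of 21, 1 of 33 and 1 of 16 reads, against 0 of 44, 0 of 62 and 0 of 23. SNU13, which binds the kink-turn of the guide RNA, had the site with 2 edited reads of 15 (13.3%, 1.66 to 40.5) in its 3′ UTR, against 0 of 13, and another at 1 of 52 against 0 of 96. NOP56, the partner of NOP58, had 1 of 31 against 0 of 41. Only the SNU13 site stood on more than 1 read, and its interval reached below the 23.1% that 0 of 13 reads allows.

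The box H/ACA proteins, which make pseudouridine, had 5 sites in DDX41-ADARcd against ADARcd alone, each with 1 edited read. DKC1, the pseudouridine synthase dyskerin, had 3 at 1 of 31, 1 of 25 and 1 of 20 reads, against 0 of 22, 0 of 36 and 0 of 45. NHP2, a core protein of the particle, had 1 of 42 against 0 of 69. Another position in the same exon 1 of NHP2 was edited in 1 of 71 reads in ADARcd alone against 0 of 10 in the empty vector. NOP10, the smallest core protein, had 1 of 68 (1.47%) in its 3′ UTR, against 0 of 105 in ADARcd alone and 0 of 10 in the empty vector. GAR1 and the assembly factor NAF1 were not listed.

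Among RNA polymerase I and its factors, the polymerase subunits POLR1A, POLR1B and POLR1C and the initiation factor RRN3 were not listed, and 3 genes had 8 sites, each with 1 edited read and each in DDX41-ADARcd against ADARcd alone. UBTF, which binds the ribosomal RNA promoter, had 4 coding sites from 1.92% to 3.45%, at depths of 29 to 52 reads against 49 to 61. TCOF1 encodes treacle, a scaffold of the nucleolar transcription sites. It had 3 coding sites, at 1 of 8, 1 of 20 and 1 of 16 reads against 0 of 17, 0 of 24 and 0 of 32. NOLC1, a chaperone of small nucleolar ribonucleoproteins, had 1 of 14 in its 3′ UTR against 0 of 32.

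Of 18 genes of the small subunit processome and small subunit assembly, 11 were listed, with 20 sites, each in DDX41-ADARcd against ADARcd alone. UTP15, UTP20, WDR75, RRP9, BMS1, LTV1 and TSR1 were not listed. WDR43, a processome protein that binds early to the precursor, had 2 edited reads of 28 (7.14%, 0.877 to 23.5) against 0 of 45, with a p of 0.144 before and 0.56 after adjustment by Fisher's exact test with Benjamini-Hochberg adjustment. NOL6, a processome subunit, had sites at 1 of 23 and 1 of 19, and UTP14A, which works with a processome helicase, at 1 of 6 and 1 of 12. HEATR1, needed for transcription and processing of the precursor, had 1 of 11 and 1 of 14, and NAT10, the cytidine acetyltransferase of ribosomal RNA, 1 of 15 and 1 of 11. UTP3, UTP4, UTP18, RRP12 and MPHOSPH10 had 1 site each, from 4.55% to 7.69%.

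NOP14, which joins the small subunit precursor early, had 6 of these 20 sites, packed into 387 bases. All 6 lay in the 3′ UTR of the transcript NOP14-203, between positions 2938372 and 2938758 of chromosome 4, which was exonic in 1 and intronic in 4 of the 5 annotated transcripts that span it. The edited reads were 1 of 9, 1 of 9, 1 of 5, 1 of 10, 1 of 20 and 2 of 17 in genome order, against 0 of 18, 18, 20, 19, 27 and 21 in ADARcd alone. Levels therefore ran from 5.0% to 20%, and the site with 2 edited reads stood at 11.8% (1.46 to 36.4). All 6 were inside an inverted repeat of 491 bases (chr4:2938278-2938768), whose arms match each other's reverse complement at 75.3% of aligned bases. ADAR acts on double-stranded RNA, and such arms can pair. The lines below give the site with 2 edited reads and the stretch of the other arm that faces it, with the edited A and its facing base in capitals.
NOP14 edited arm (chr4:2938748-2938768, minus strand): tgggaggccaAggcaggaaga
NOP14 facing arm (chr4:2938278-2938298, minus strand): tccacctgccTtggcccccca
The facing base was T at 5 of the 6 sites and C at 1. NOP14 was the only gene of 34 members checked whose transcripts held such a repeat. By transcript it was 1 of 37 with member sites, beside 446 of 4008 transcripts with sites in that list (11.1%). GNL3L was not among the genes checked, since its sites lay on no annotated transcript and had no sequence to search. Over that list, 26.6% of the 580 sites inside an inverted repeat had 2 or more edited reads, with a median level of 11.1% at a median of 11 reads. Among the 8952 other exonic sites it was 15.1%, with 3.12% at 35 reads, so sites in repeats were read less deeply. Of the 6 positions, 2 also lay in an exon of the antisense gene NOP14-AS1, and without a stated strand their reads cannot be told apart.

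The large subunit assembly genes had 28 sites in DDX41-ADARcd against ADARcd alone, of which 22 were in GNL3L. NOP16, BOP1, WDR12, GNL2, NMD3 and SBDS were not listed. RRP1B, a nucleolar protein of large subunit processing, had 2 edited reads of 9 (22.2%, 2.81 to 60) against 0 of 16 and 1 of 6 against 0 of 19, both in exon 13. Neither position had the 10 reads needed for the test. GNL3, the nucleolar GTPase nucleostemin, had 2 neighbouring coding positions in ADARcd alone at 1 of 78 and 1 of 71 reads, against 0 of 19 and 0 of 17. NOP2, PES1, RRP1 and LAS1L had 1 site each at 6.25% to 8.33%.

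GNL3L, a GTPase related to nucleostemin, had the most sites of any member in the list of DDX41-ADARcd against ADARcd alone, and all 22 lay beyond the end of its annotated gene. The sites ran from 1204 to 3898 bases after the GENCODE 29 gene end (chrX, position 54561071), with the next gene of that strand 110914 bases away. The RefSeq gene held all 22. In the whole list, the only name with more sites outside GENCODE genes was TALAM1, with 40. The GNL3L sites had 8 to 35 reads in DDX41-ADARcd (median 13) and 10 to 36 in ADARcd alone (median 19), so depth overlapped between these libraries. Levels ran from 2.86% to 22.2% with a median of 8.71%, and 18 of 22 sites had 1 edited read. The 4 with 2 edited reads stood at 2 of 19 (10.5%), 2 of 9 (22.2%), 2 of 33 (6.06%) and 2 of 13 (15.4%), against 0 of 27, 22, 35 and 12 in ADARcd alone. Within the stretch, 7 sites with 9 edited reads fell in 134 bases (chrX:54563598-54563731), and 5 sites with 6 edited reads in 97 bases (chrX:54564873-54564969). Of the 22 positions, 19 had enough reads for the test, and 0 were called.

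**Figure D3:**
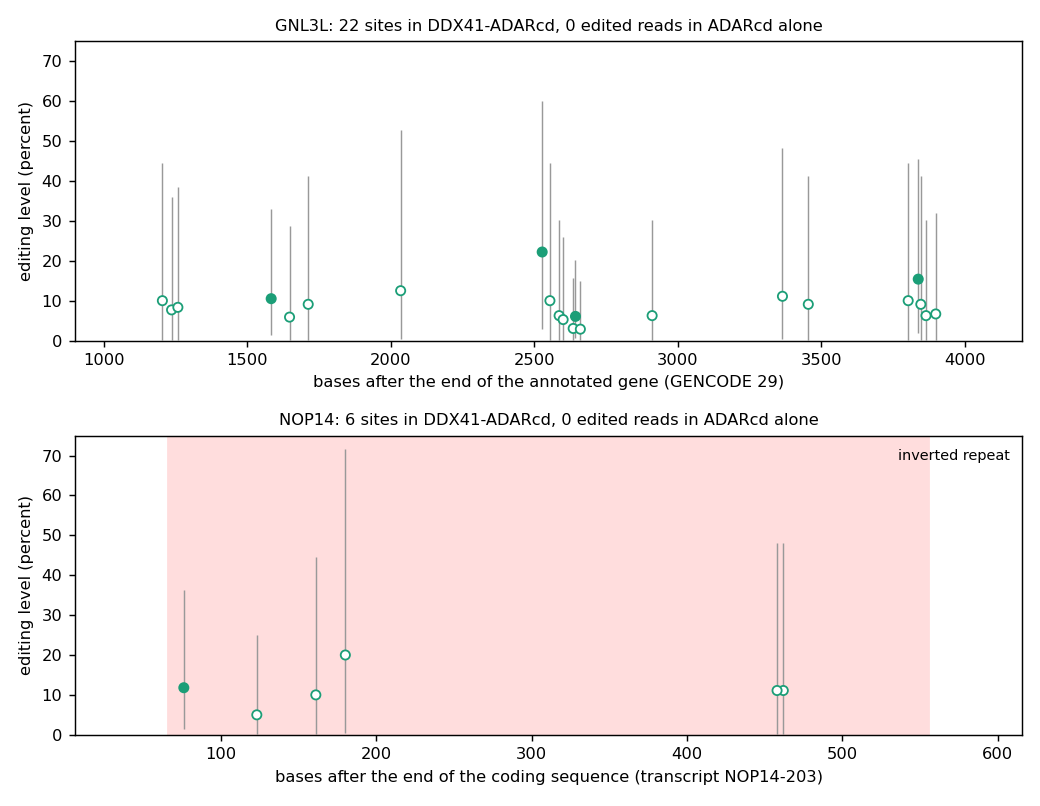
Editing level in DDX41-ADARcd (percent, with exact 95% intervals) at the 22 sites of GNL3L against their distance after the annotated gene end, and at the 6 sites of NOP14 against their distance after the coding end of NOP14-203, with the inverted repeat shaded. Filled points have 2 edited reads, open points 1; GNL3L sites lie between 2.86% and 22.2% over 2695 bases, and all 6 NOP14 sites fall in the shaded repeat.

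The nucleolar DEAD-box helicases are relatives of DDX41 that unwind RNA during assembly, and 5 of 10 were listed. DDX10, DDX27, DDX47, DDX51 and DDX52 had no site. DDX21, which couples RNA polymerase I transcription to processing of the precursor, was the member with the highest levels in ADARcd alone. Its 3 sites had 2 of 72 (2.78%, 0.338 to 9.68), 2 of 59 (3.39%, 0.413 to 11.7) and 2 of 61 reads (3.28%, 0.4 to 11.3), against 0 of 15, 10 and 11 in the empty vector. At those control depths a level of up to 20%, 30.0% and 27.3% was allowed, so the empty vector could not tell the DDX21 levels from its own. In DDX41-ADARcd against ADARcd alone, DDX21 had 4 other sites with 1 edited read each, at depths of 17 to 48. DDX24, a helicase of large subunit assembly, had 2 edited reads of 42 (4.76%, 0.582 to 16.2) against 0 of 78, and 2 sites with 1 edited read each. DDX54 had 2 of 38 (5.26%, 0.644 to 17.7) against 0 of 51. DDX56 had 1 of 19 and 1 of 33 reads, against 0 of 39 and 0 of 45. DDX18 had 1 of 19 (5.26%) against 0 of 47 in ADARcd alone and 0 of 11 in the empty vector, and at another position 1 of 43 in ADARcd alone against 0 of 10.

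Depth at the members' sites was mostly lower in DDX41-ADARcd than in ADARcd alone. The median ratio of DDX41-ADARcd to ADARcd alone reads was 0.759 over 108 member sites (0.704 to 0.79, from order statistics), beside 0.661 over all sites. The interval treats sites of 1 gene as separate. The median over genes of each gene's median was 0.734, and without NCL, NPM1 and GNL3L the median was 0.695 over 58 sites in 31 genes, nearer to the value for all sites. By role the medians were 0.833 for large subunit assembly, 0.781 for the chaperones, 0.741 for the small subunit, 0.733 for the helicases, 0.726 for box C/D, 0.648 for box H/ACA and 0.561 for RNA polymerase I factors. Among 527 genes with 5 or more sites the middle value was 0.659 (5th to 95th percentile 0.488 to 0.876). NCL and NPM1 both stood at 0.781, GNL3L at 0.838 and NOP14 at 0.513, each within that range. Sites of 1 gene share reads and are not replicates. With 1 library per group, library size, the RNA per cell and the share of cells carrying the transgene cannot be told apart. Each listed position also had an edited read in DDX41-ADARcd, and what this selection did to the ratios was not tested.

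**Figure D4:**
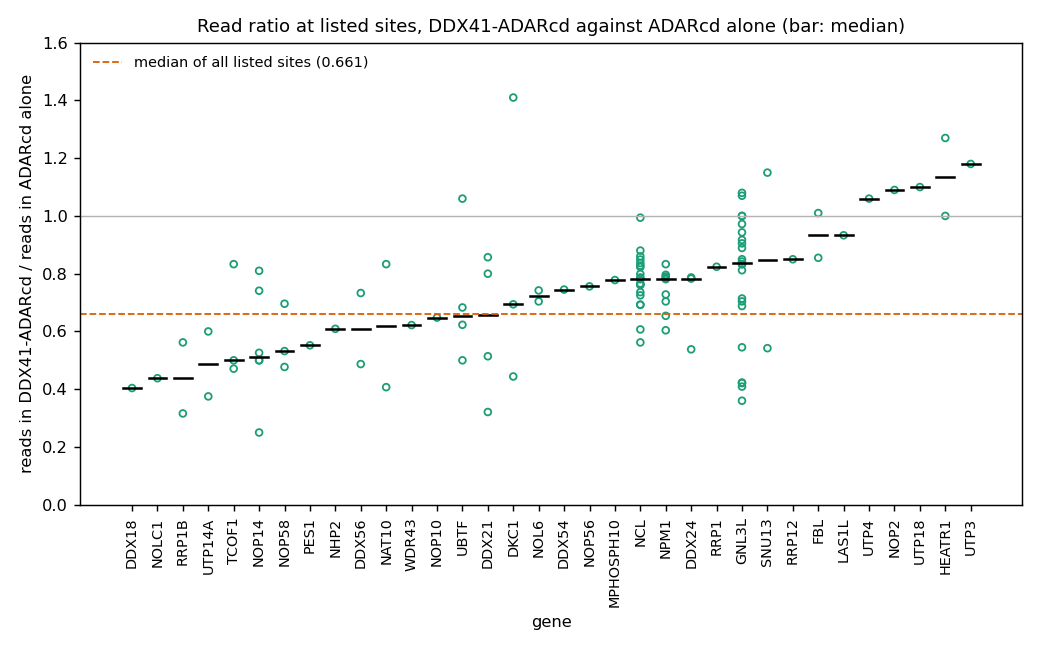
Reads in DDX41-ADARcd divided by reads in ADARcd alone at each site listed for that comparison, 1 column per member gene ordered by its median (bar), with the median of all listed sites (0.661) dashed. Most genes with several sites lie below a ratio of 1, and NCL and NPM1 lie above the dashed line at 0.781.

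The members' sites were mostly coding. Coding exons held 28 of 32 sites in ADARcd alone, 87.5% (71.0 to 96.5) beside 72.3% of all its sites. They held 31 of 33 in DDX41-ADARcd against the empty vector, 93.9% (79.8 to 99.3) beside 72.9%. Against ADARcd alone they held 72 of 108, 66.7% (56.9 to 75.4) beside 58.0%, and 83.7% (74.2 to 90.8) without GNL3L. For DDX41-ADARcd against the empty vector 26 of the 33 sites were in NCL and NPM1. With 3′ UTR placed before coding exon where transcripts differ, the members' coding share there was 84.8% (68.1 to 94.9). The 72.9% over all sites was counted with coding exon first, so it is no reference for that share. Sites in 3′ UTRs numbered 4, 2 and 14. The 22 GNL3L sites beyond the annotated gene end were counted neither as coding nor as 3′ UTR. By codon position, the 31 coding sites listed for DDX41-ADARcd over the empty vector fell 3, 10 and 18 on the first, middle and last base, and the 28 of ADARcd alone 8, 10 and 10.

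The ADAR catalytic domain is known to prefer A or U before and G after the adenosine it edits. In the members, A or T stood before the edited A at 65.6% (46.8 to 81.4) of sites in ADARcd alone, beside 47.8% of all sites and 51.7% of all A in the same transcripts. The shares were 60.6% (42.1 to 77.1) beside 41.6% and 49.4% for DDX41-ADARcd against the empty vector, and 59.3% (48.2 to 69.8) beside 42.0% and 45.0% against ADARcd alone. The last interval lay above both of its reference shares, but without NCL and NPM1 the share was 55.2% (41.5 to 68.3), an interval that holds both. G followed the edited A at 37.5%, 27.3% and 40.7% of member sites, beside 29.3%, 30.0% and 32.7% of all A. Over all listed sites it was 40.1%, 36.1% and 37.1%, so only the last member share lay above that of its list. Without NCL and NPM1 the share with A or T before the edited A was 28.6% for DDX41-ADARcd against the empty vector, over the 7 sites that remained.

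**Figure D5:**
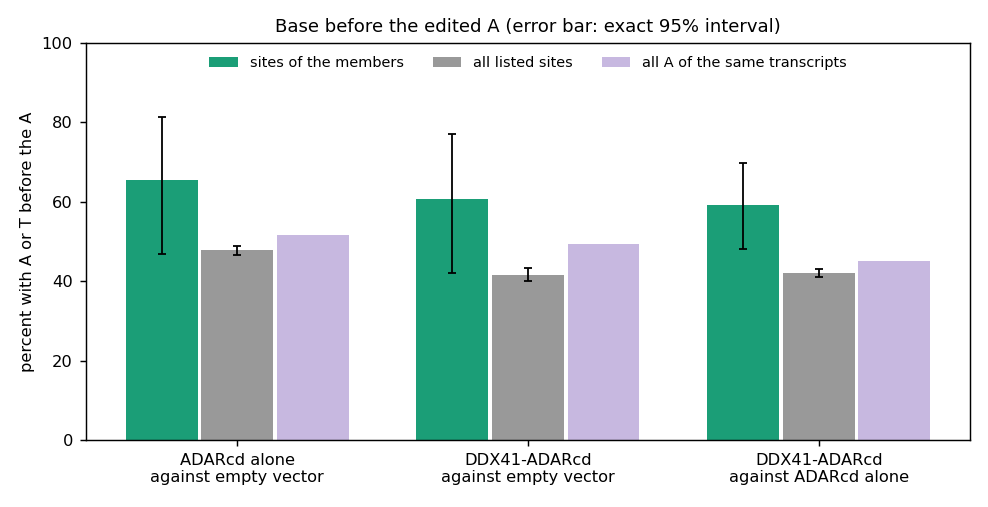
Percent of sites with A or T before the edited A in each list, for the members' sites, all listed sites, and all A of the same member transcripts (weighted by sites). Error bars are exact 95% intervals. The members' bars stand at 65.6%, 60.6% and 59.3%, above both other bars in each list. A and T are pooled, and T alone was less frequent at member sites than in either reference.

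A wider list of 87 further ribosome biogenesis genes, among them exosome subunits and processome proteins, was also counted. It had 8 sites in 5 genes (5.75%) for ADARcd alone and 1 site in 1 gene (1.15%) for DDX41-ADARcd against the empty vector. Against ADARcd alone it had 69 sites in 40 genes (46.0%). The members' shares in the same order were 10.0%, 15.0% and 56.7%. Both sets were chosen with earlier results of these data known, so no conclusion is drawn from the difference in shares. Fisher's exact test with Benjamini-Hochberg adjustment called 0 of the 8, 1 and 53 of these sites with enough reads in either direction, and 0 had an unadjusted p under 0.05. Their median level in the last list was 7.14% and their median read ratio 0.7.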

How the data were processed

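Each of the 3 deposited site lists holds counts, described per the file headers as reads with each base and in total, at a position in a pair of libraries, and the deposited headers record no normalization of the counts by the authors. The submitters' processing notes name CASAVA 1.4, FastQC 0.11.7, STAR 2.5 and mm10, with no roles. Not given in the sources used here: which program called the sites, its filters and the gene annotation. Since no column names a library, the columns marked gDNA/wtRNA were assigned to the library that comes last in the list's title and the other columns to the first. Although mm10 is a mouse build, the coordinates fit human GRCh38: 151 of 173 member entries lay inside the named GENCODE 29 gene, and 151 of 151 had A on its transcript. The other 22 were in GNL3L.

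Entries repeated for overlapping genes were joined, 134 for ADARcd alone, 62 for DDX41-ADARcd over the empty vector and 184 for DDX41-ADARcd over ADARcd alone. A position enters the last of these lists only with 0 edited reads in ADARcd alone, so positions listed for both transduced libraries against the empty vector were added for its test. A two-sided Fisher's exact test (scipy 1.17.1) was run where both libraries had 10 reads or more, adjusted by Benjamini-Hochberg over all sites of a comparison, with a threshold of 0.05. Of the listed member sites, 10 had too few reads for it. The test was tried on simulated data. Sites were annotated in the order coding exon, 3′ UTR, other. Inverted repeats were found by aligning each transcript to its own reverse strand (blastn 2.17.0, word size 11, E-value at most 1e-05). Python 3.11.15, pandas 2.3.3, numpy 2.4.6 and matplotlib 3.10.9 were used.

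The members, the role groups and the wider list were chosen with earlier results of these data known. Values are named for member sites with 2 or more edited reads, the site listed for both transduced libraries, the smallest p, and up to 3 members with most sites per role; other members' values were added after they were seen, as were the search for inverted repeats and the dense stretches. Alternatives were other read minimums, edited reads of 2 or more, Bonferroni adjustment, halved reads, mitochondrial sites left out, 3′ UTR first and medians over genes, and, added after seeing the data, leaving out NCL and NPM1 or GNL3L.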

Additional observations from a re-analysis of the deposited data

How the results depend on the processing

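Member sites called higher stayed at 0 in the 3 comparisons under the 5 alternatives run for each, as did those called lower in DDX41-ADARcd against ADARcd alone. With 0 member sites at an unadjusted p under 0.05, a higher read minimum or Bonferroni adjustment could not have added a call. Sites with 0 edited reads in the control could not come out lower under any alternative. The unchanged counts are therefore no measure of robustness. Of 59 alternatives for 17 results, 14 moved a value. With 2 or more edited reads required, members listed fell from 6 to 3 for ADARcd alone, from 9 to 2 for DDX41-ADARcd against the empty vector and from 34 to 9 against ADARcd alone, and with 20 reads in each library to 2, 2 and 20. The coding share became 57.1% for ADARcd alone and 100% for DDX41-ADARcd against the empty vector with 2 or more edited reads. Against ADARcd alone it became 86.4% with 20 reads and 83.7% without GNL3L. Without NCL and NPM1, chosen after seeing the data, the share of sites with 1 edited read was 57.1% for ADARcd alone and 100% for DDX41-ADARcd against the empty vector, where A or T before the edited A became 28.6%. With all members and 20 reads in each library that last share was 84.2%. Fewer sites entered each of these values. No paired analysis was possible because each group had 1 library and the labels carry no replicate numbers, and no library could be left out. With 10 to 39 empty-vector reads at the NCL positions, depth limits what these lists can tell.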
